A study of Mus musculus with 8 samples.

Results

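The regions described here are promoter regions of mouse haematopoietic stem cells (HSCs) that carried a called peak of H3K4me3 in both genotypes and overlapped no called peak of H3K27ac in either. They were found by merging overlapping H3K4me3 peaks of the RXRKO and WT libraries, keeping the regions called in both that lay within 1 kb of either annotated end of a protein-coding gene, and removing each one that shared at least 1 bp with an H3K27ac peak. Of 60218 merged H3K4me3 regions, 44324 were called in both genotypes and 14262 of these lay within 1 kb of a gene end. The unacetylated regions numbered 1753, or 12.3% of the 14262. A further 11392 carried H3K27ac in both genotypes and 1117 in 1 genotype. The regions were thus chosen by the measured H3K4me3 and H3K27ac calls of both genotypes, so lengths, heights and distances of those marks are given as description without a test, whereas H3K4me1 was not used in the choice.

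The assay was CUT&RUN: an antibody tethers a nuclease to the marked nucleosomes so that the DNA around them is cut free and sequenced. The 2 groups were RXRKO, mice of the strain C57BL/6 with both Rxra and Rxrb deleted by Vav-Cre, and WT, given in the sample labels as Vav-Cre positive and in the design text as carrying the unrecombined Rxra and Rxrb alleles without naming a Cre. The 2 descriptions of WT differ, so a difference between genotypes and a difference in Cre cannot be told apart. Vav-Cre is active in blood cells, and it deletes the receptors from early in development rather than in the adult alone. The bone marrow of 4 or 5 mice, about 10 months old, was pooled, and each assay took 7500 HSCs of the gate Lin-cKit+Sca1+CD48-CD150+. H3K4me3 and H3K27ac had 1 library per genotype, and H3K4me1 had 2. The labels do not say whether the 2 came from separate pools of mice, so p-values measure the spread between libraries, which may be technical. The deposited files are lists of called peaks, and the sequencing depth is unknown. The lists hold 58136 H3K4me3 peaks for RXRKO and 47835 for WT, 64849 H3K27ac peaks for RXRKO and 74287 for WT, and between 147698 and 165128 H3K4me1 peaks in the 4 libraries of that mark, with RXRKO replicate 2 the most.

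H3K4me3 is laid down around the starts of genes, mostly on DNA rich in CpG, where proteins with CXXC domains recruit the methyltransferases. H3K27ac, written by p300 and CBP, accompanies genes that are being transcribed, and H3K4me1 flanks promoters and marks enhancers. Promoters with H3K4me3 and no acetylation are well known in stem cells, above all at genes for the development of other tissues, many of which also carry H3K27me3 from Polycomb complexes. That repressive mark was not analysed here, so these regions are called unacetylated and not bivalent.

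The promoter windows of 6 genes show the span of CpG content. Ski, Sall1 and Casz1 are the genes of the broadest unacetylated regions with a listed promoter window. Gdpd2, Gm14322 and H2-Q2 have the lowest CpG observed/expected ratio among windows that lie inside an unacetylated region. The Sall1 and Casz1 windows also lie inside their regions, whereas the Ski window lies just upstream of its region and outside it. Each run is the RefSeq promoter window on GRCm38.p6, from 250 bp before to 50 bp after the gene's start, 5′ to 3′ on the gene's strand, with each CG dinucleotide in capitals.
Ski, chr4:155222486-155222785, minus strand: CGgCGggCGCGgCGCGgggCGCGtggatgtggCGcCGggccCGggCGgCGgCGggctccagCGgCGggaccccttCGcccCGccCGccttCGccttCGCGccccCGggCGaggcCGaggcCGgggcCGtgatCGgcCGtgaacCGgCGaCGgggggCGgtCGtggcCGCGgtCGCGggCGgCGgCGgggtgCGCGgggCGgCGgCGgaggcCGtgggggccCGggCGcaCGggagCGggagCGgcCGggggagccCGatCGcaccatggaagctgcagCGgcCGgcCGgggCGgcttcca
Sall1, chr8:89042813-89043112, minus strand: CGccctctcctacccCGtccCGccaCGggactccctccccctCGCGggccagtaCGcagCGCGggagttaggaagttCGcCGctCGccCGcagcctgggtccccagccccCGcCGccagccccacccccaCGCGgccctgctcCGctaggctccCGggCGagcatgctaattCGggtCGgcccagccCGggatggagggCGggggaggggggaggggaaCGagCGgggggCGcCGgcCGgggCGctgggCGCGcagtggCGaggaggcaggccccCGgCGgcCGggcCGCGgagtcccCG
Casz1, chr4:148804142-148804441, plus strand: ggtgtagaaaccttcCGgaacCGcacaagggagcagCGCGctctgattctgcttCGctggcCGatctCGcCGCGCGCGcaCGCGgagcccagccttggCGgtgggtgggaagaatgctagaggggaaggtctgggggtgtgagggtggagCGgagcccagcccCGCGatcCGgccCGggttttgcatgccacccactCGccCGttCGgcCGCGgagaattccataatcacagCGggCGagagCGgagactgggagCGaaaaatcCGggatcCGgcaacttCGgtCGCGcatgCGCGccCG
Gdpd2, chrX:100729597-100729896, plus strand: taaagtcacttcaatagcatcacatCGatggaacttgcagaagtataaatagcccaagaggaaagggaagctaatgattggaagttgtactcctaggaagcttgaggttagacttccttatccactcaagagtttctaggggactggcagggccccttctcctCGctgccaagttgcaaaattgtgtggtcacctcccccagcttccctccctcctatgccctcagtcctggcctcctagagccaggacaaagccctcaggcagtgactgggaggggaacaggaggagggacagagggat
Gm14322, chr2:177759038-177759337, plus strand: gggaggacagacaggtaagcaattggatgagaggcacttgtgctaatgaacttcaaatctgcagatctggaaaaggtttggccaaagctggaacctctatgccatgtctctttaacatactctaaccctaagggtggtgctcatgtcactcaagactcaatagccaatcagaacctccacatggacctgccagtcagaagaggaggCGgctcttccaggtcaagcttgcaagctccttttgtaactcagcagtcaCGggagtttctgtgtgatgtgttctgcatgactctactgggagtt
H2-Q2, chr17:35342057-35342356, plus strand: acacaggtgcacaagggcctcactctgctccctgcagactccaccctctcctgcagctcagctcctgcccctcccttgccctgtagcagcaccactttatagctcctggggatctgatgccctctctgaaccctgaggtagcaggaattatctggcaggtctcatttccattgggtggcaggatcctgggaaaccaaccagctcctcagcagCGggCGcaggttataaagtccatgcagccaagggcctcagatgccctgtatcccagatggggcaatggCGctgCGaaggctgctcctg

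The Ski window holds 59 CG dinucleotides at an observed/expected ratio of 1.12, the Sall1 window 39 at 0.819 and the Casz1 window 36 at 1.08. By contrast the Gdpd2 and Gm14322 windows hold 2 each, at 0.0986 and 0.114, and the H2-Q2 window holds 4 at 0.156. The CpG-poor windows still lay in H3K4me3 regions of 985 bp in RXRKO and 922 bp in WT at Gdpd2, of 598 bp in RXRKO and 587 bp in WT at Gm14322, and of 1427 bp in RXRKO and 1422 bp in WT at H2-Q2, a gene of the class I histocompatibility cluster. H3K4me1 covered the whole of the Gdpd2 region in each of the 4 libraries, whereas at Gm14322 it was called in WT replicate 1 alone.

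Over 1025 listed starts within 1 kb of an unacetylated region, the median C+G content was 64% and the median CpG observed/expected ratio 0.701. The 10417 starts with H3K27ac in both genotypes had medians of 61.7% and 0.777, and all 21045 listed starts 56.7% and 0.574. The 8898 starts with no promoter region called in both genotypes within 1 kb had 48.7% and 0.217. Of these 8898, some may lie beside an H3K4me3 region that was not counted because it lay over 1 kb from a gene end. At 61.6% of the unacetylated starts the window had at least 50% C+G and a ratio of at least 0.6. The share was 71.4% of the acetylated starts, 12.4% of starts without a promoter region and 45.6% of all. Unacetylated promoters therefore lay closer to acetylated ones than to starts without a promoter region in base composition. The 1025 windows belong to 916 of the 1668 genes concerned, they are given as a description, and no test was made over them.

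**Figure D1:**
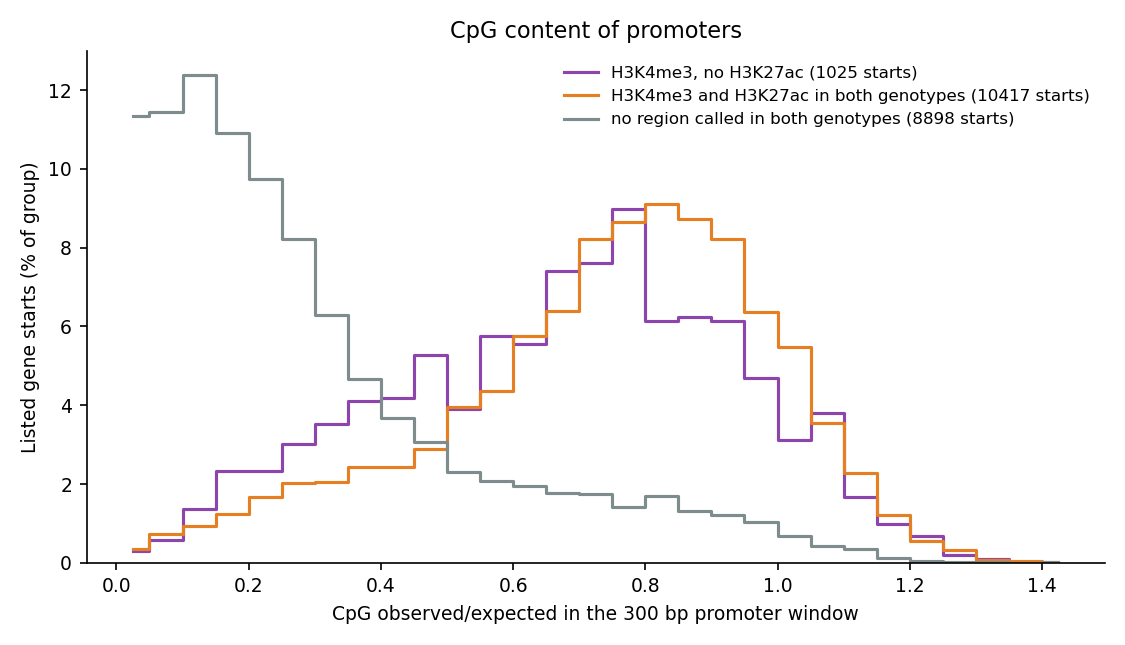
Distribution of the CpG observed/expected ratio in the 300 bp promoter window, as the percentage of listed gene starts in each bin of the ratio. The first group is starts within 1 kb of an unacetylated H3K4me3 region (1025), and the second of a region with H3K27ac in both genotypes (10417). The third is starts with no promoter region called in both genotypes within 1 kb (8898), which may not all be unmarked. The first group peaks close to the second and is broader on the low side, while the third piles up near 0.

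Unacetylated regions were shorter and lower than acetylated ones. H3K4me3 covered a median of 1037 bp of an unacetylated region in RXRKO and 949 bp in WT, against 1565 bp in RXRKO and 1549 bp in WT for regions with H3K27ac in both genotypes. The authors' fold of the H3K4me3 peak over local background had a median of 5.99 in RXRKO and 5.67 in WT, against 8.34 in RXRKO and 8.28 in WT for acetylated regions. A listed gene start lay inside 759 of the 1753 regions (43.3%). The share was 69.3% of regions with H3K27ac in both genotypes and 49.9% of those with it in 1 genotype. Of the 1753, a further 303 lay within 1 kb of a start without holding it, 209 of them downstream and 94 upstream. Another 226 lay over 1 kb from every listed start of their genes, and for 465 no start of the gene is listed. These 226 regions may lie at the far end of the gene or at a start that is not listed. Because the rule takes either end, regions at the far end may mark no promoter of the gene they are named by.

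The nearest H3K27ac peak of either genotype lay a median of 10319 bp away. Distances to H3K27ac take the nearer of the RXRKO and WT peaks unless a genotype is named, and the other peak could be much farther. At 404 regions the nearer peak was within 2 kb and at 1349 farther, a split chosen after the values were seen. The regions on either side of the split differed in kind. The near regions had a median H3K4me3 fold of 3.64 in RXRKO and 3.75 in WT and held a listed start in 25.2% of cases, while the far regions had 6.90 in RXRKO and 6.44 in WT and held a start in 48.7%. An example of a near region is that of Meis1, a homeobox factor of HSCs, at chr11:19019656-19020125, which lay 435 bp from H3K27ac.

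**Figure D2:**
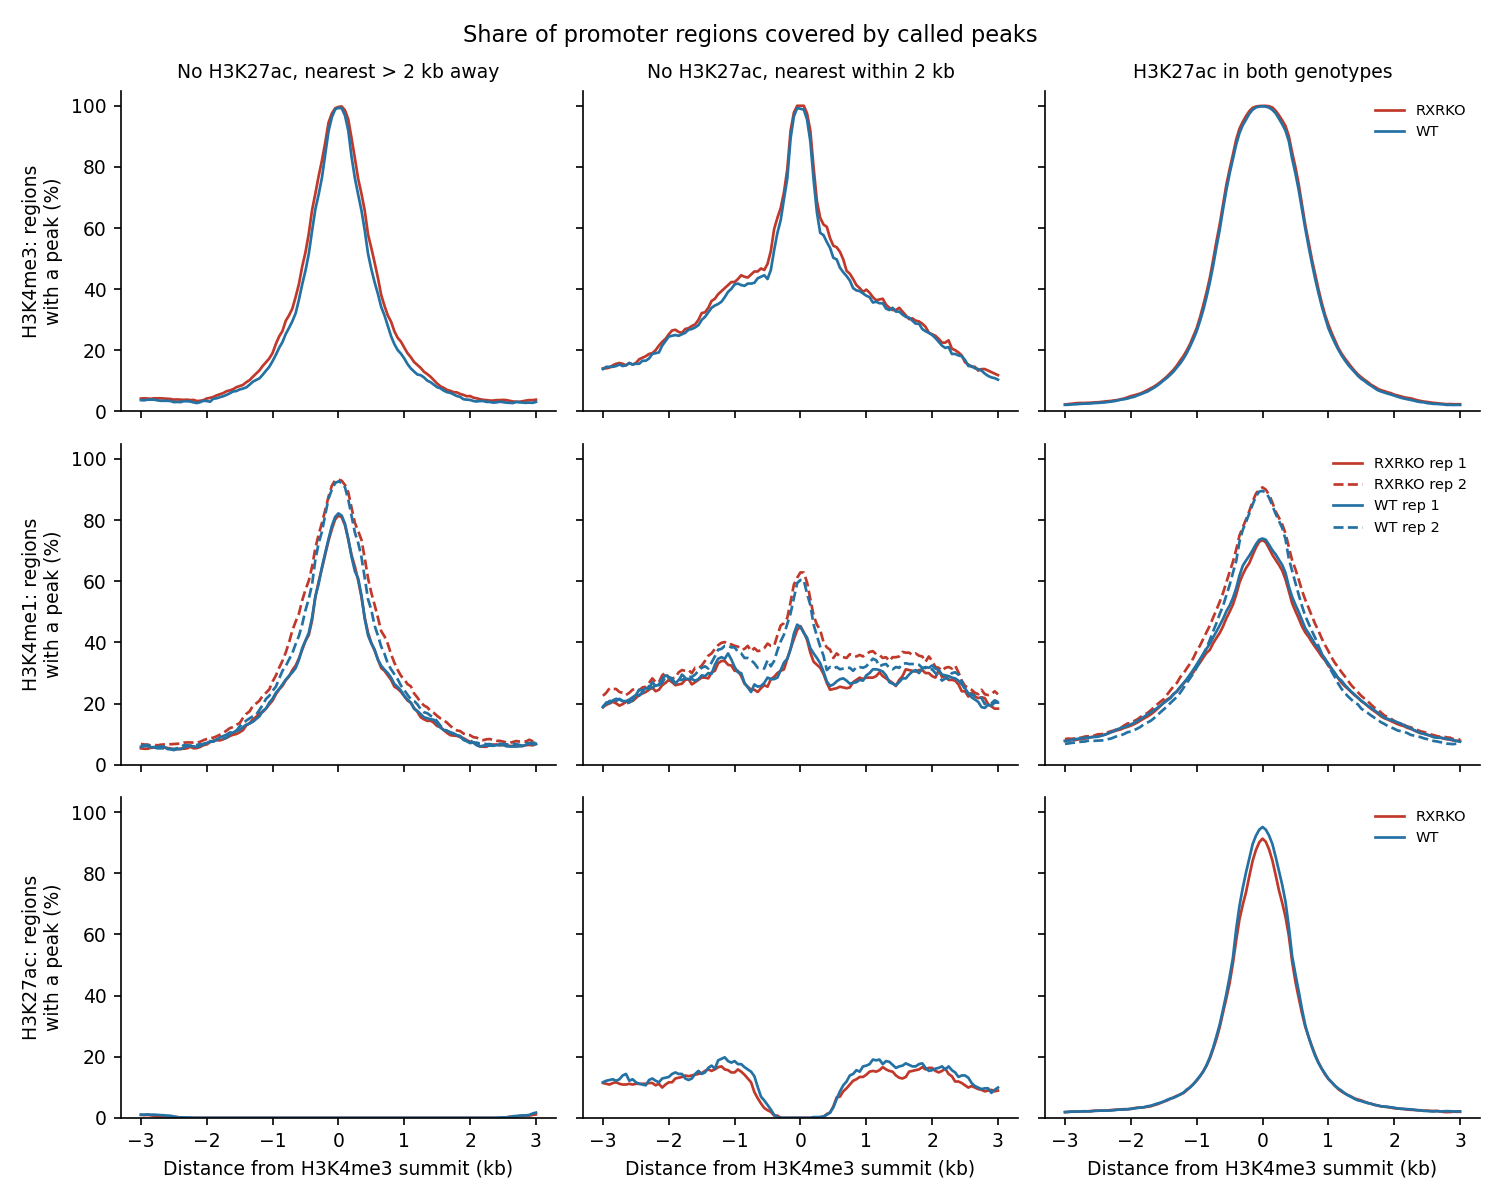
Percentage of regions covered by a called peak at each distance from the H3K4me3 summit, from 3 kb before to 3 kb after it, for H3K4me3 (top), H3K4me1 (middle) and H3K27ac (bottom), in RXRKO (red) and WT (blue), replicate 1 solid and replicate 2 dashed. Columns show 1349 unacetylated regions more than 2 kb from H3K27ac, 404 within 2 kb of it, and 11392 regions with H3K27ac in both genotypes. H3K4me1 at the summit stands highest in the left column and lowest in the middle one; the lack of H3K27ac at the summit in the left and middle columns follows from the rule.

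The regions named 1668 genes, of which 1189 had unacetylated regions alone and 479 also had an acetylated one. Genes for the development of other tissues were a minority of these, with a higher share of unacetylated genes than over all genes. Of 299 developmental transcription factor genes in the annotation, 157 had an unacetylated region, which is 58.8% of the 267 with any promoter region in both genotypes. Over all protein-coding genes the figure was 1668 of 14243, or 11.7%. Ion channels and transmitter receptors stood at 99 of 216 genes (45.8%), neuronal adhesion and synapse genes at 72 of 149 (48.3%), and morphogens and signalling ligands at 50 of 132 (37.9%). Together these 4 lists held 316 of the 1189 genes with unacetylated regions alone (26.6%). The lists were drawn up by gene name with earlier results of these data known, so the shares are descriptions.

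**Figure D3:**
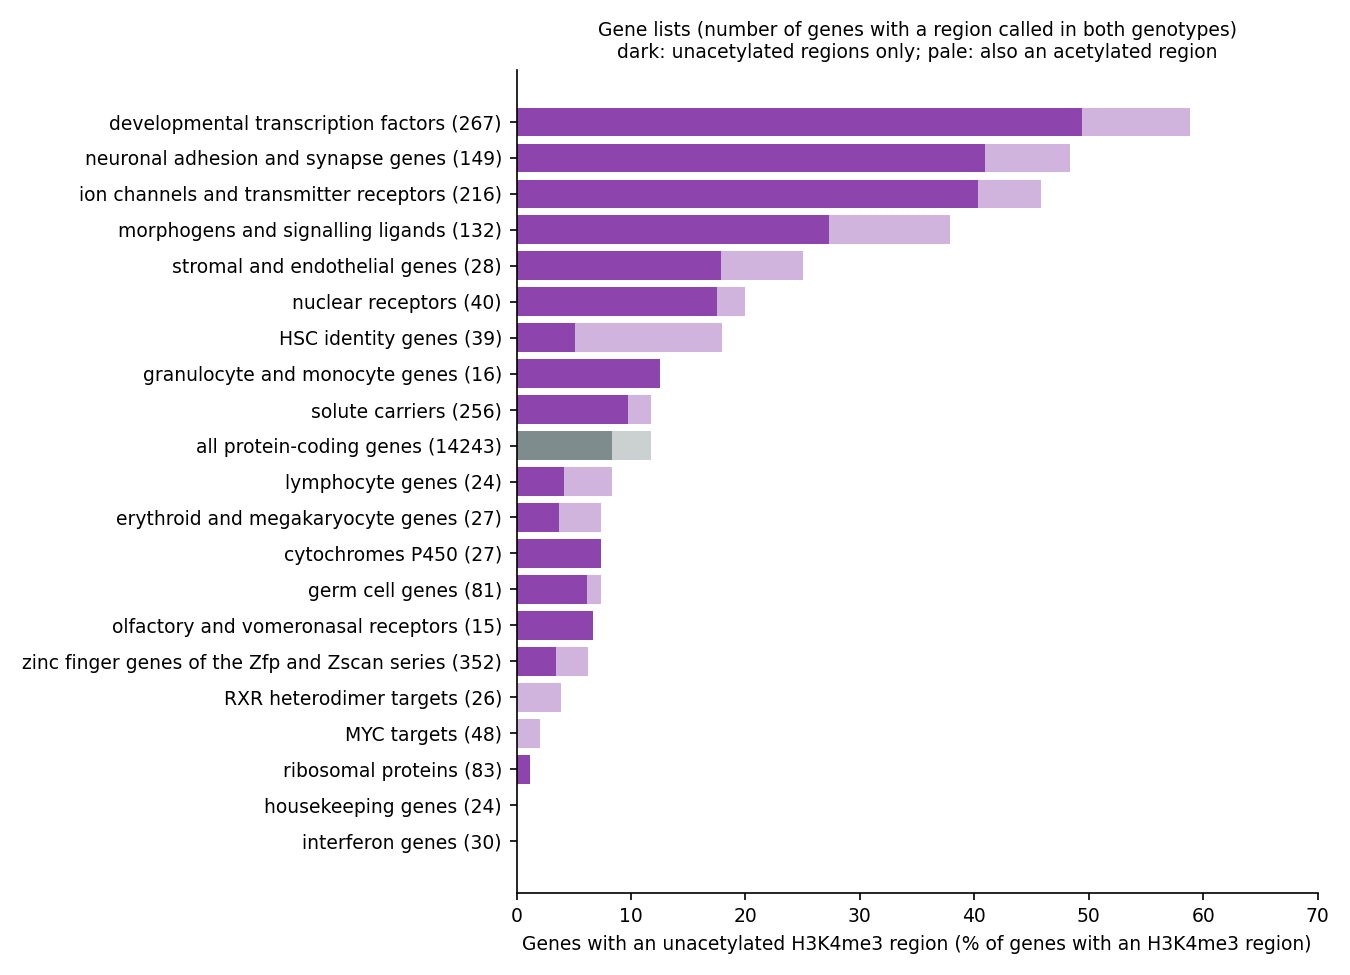
Percentage of the genes of each list with an H3K4me3 region in both genotypes (number in brackets) that had an unacetylated region, dark where every region of the gene was unacetylated and pale where the gene also had an acetylated one. The 4 lists of developmental and neuronal genes run from 37.9% to 58.8%, against 11.7% for all protein-coding genes (grey), and housekeeping and interferon genes are at 0.

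Among the transcription factors, several small families were unacetylated throughout. Every gene of the Zic family (5 of 5), which patterns the neural tube, had unacetylated regions and no acetylated one, and so had the POU factors of the Pou3f (4 of 4) and Pou4f (3 of 3) families, the Olig factors of oligodendrocytes and motor neurons (3 of 3), the neurogenins (3 of 3) and the Onecut factors (3 of 3). Zic1 and Zic4 share 1 region. Of 9 Pax genes, 6 had unacetylated regions alone, 1 was acetylated and 2 had no region in both genotypes. The Sox genes were divided: 8 of 19 had unacetylated regions alone, 1 had both kinds and 10 had acetylated regions alone. Sox1, Sox2 and Sox3 of neural progenitors were among the 9 with an unacetylated region. These families were picked after the lists had been read.

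Sall1, a zinc finger repressor of kidney and limb development, had one of the broadest regions, at chr8:89041024-89044356 over its start, whose sequence is given above. H3K4me3 covered 3310 bp of it in RXRKO and 3232 bp in WT, and the nearest H3K27ac peak was 126405 bp away. H3K4me1 covered 1820 and 2354 bp in RXRKO replicates 1 and 2, against 1658 and 2283 bp in WT replicates 1 and 2. In both genotypes replicate 2 was the higher, and the genotypes overlapped. Pou3f2, a neuronal POU factor, had 2964 bp of H3K4me3 in RXRKO and 2837 bp in WT. Its H3K4me1 covered 1972 and 2594 bp in RXRKO, against 2261 and 2587 bp in WT. Cdx2, the caudal factor of gut and trophoblast, had 2831 bp of H3K4me3 in RXRKO and 2595 bp in WT, with H3K4me1 in all 4 libraries. The Cdx2 gene also had an acetylated region. Of the 212 regions of this list, 157 had the H3K4me3 summit inside an H3K4me1 peak in all 4 libraries.

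The Hox genes, which encode the position of cells along the body axis, split by cluster. In Hoxc 6 of 9 genes and in Hoxd 6 of 9 had unacetylated regions alone. In Hoxa it was 2 of 11 and in Hoxb 3 of 10, while 5 Hoxa and 6 Hoxb genes had acetylated regions alone. At Hoxd9 H3K4me3 covered 1524 bp in RXRKO and 1406 bp in WT, and H3K4me1 covered 1383 and 1524 bp in RXRKO, against 1391 and 1524 bp in WT. The region of Hoxd9 thus carried H3K4me1 over nearly its whole length in all 4 libraries, 41334 bp from the nearest H3K27ac peak.

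Among the ligands, Wnt5a, a non-canonical Wnt, had the broadest region, at chr14:28504594-28507669, with 3071 bp of H3K4me3 in RXRKO and 3066 bp in WT. H3K4me1 covered 1696 and 1497 bp in RXRKO, against 898 and 1615 bp in WT. WT replicate 1 was the lowest there, and the groups overlapped. Ntn1, the axon guidance cue netrin, had 2590 bp of H3K4me3 in RXRKO and 2519 bp in WT, and the gene also had an acetylated region. Ihh, Indian hedgehog, had 2341 bp of H3K4me3 in RXRKO and 2129 bp in WT. Its region lay 1157 bp from H3K27ac in RXRKO and 45085 bp from it in WT. Wnt5a and Ihh had unacetylated regions alone. So had Shh, Bmp2, Nog, Wnt3a, Gdnf and Bdnf, whose products pattern embryos or keep neurons alive.

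Among the channels, Kcna1, a voltage-gated potassium channel of axons, had 2984 bp of H3K4me3 in RXRKO and 2798 bp in WT. H3K4me1 covered 2465 and 2984 bp in RXRKO, against 2432 and 2984 bp in WT, so that in replicate 2 of both genotypes the whole region was called. Of 71 potassium channel family genes with a region, named Kcn, 34 had an unacetylated one. Grm4, a glutamate receptor, had 2254 bp of H3K4me3 in RXRKO and 2253 bp in WT, and the calcium-permeable channel Trpc4 2160 bp in RXRKO and 2242 bp in WT. Cdh11, a cadherin of mesenchyme and brain, led the adhesion genes with 3254 bp in RXRKO and 3079 bp in WT, and 2983 and 3082 bp of H3K4me1 in RXRKO, against 3079 and 2800 bp in WT. Clustered protocadherins are neuronal adhesion genes in tandem arrays. Of those with a region, 3 of 4 Pcdha, 3 of 6 Pcdhb and 11 of 16 Pcdhg genes had an unacetylated one. No region in both genotypes was found at 10 of 14 Pcdha, 16 of 22 Pcdhb and 5 of 21 Pcdhg genes. Their neighbouring members resemble one another, so reads may be shared between them and the calls at single genes are uncertain. How far reads were shared was not tested.

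Among other gene groups, the share of genes with a region that had an unacetylated one was 6.25% in zinc finger genes of the Zfp and Zscan series (22 of 352), 7.41% in germ cell genes (6 of 81) and 1.20% in ribosomal proteins (1 of 83). In solute carriers it was 11.7% (30 of 256), the same as over all genes, and in stromal and endothelial genes 25% (7 of 28). Housekeeping genes (0 of 24), interferon genes (0 of 30) and MYC targets (1 of 48) had few or none; regions of their other genes were acetylated in at least 1 genotype. The 1 ribosomal region, of Rpl19, also lies at the end of the calcium channel gene Cacnb1, 917 bp from an H3K27ac peak. Olfactory and vomeronasal receptors were mostly unmarked, with 15 of 1516 genes carrying a region in both genotypes, 1 of them unacetylated.

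Blood genes mostly had acetylated regions, here meaning H3K27ac in at least 1 genotype, or no region in both genotypes. Of 8 HSC markers, Procr, Slamf1, Kit, Mecom, Hlf, Fgd5 and Hoxb5 had acetylated regions alone, and Gata2 had an unacetylated region. The 8 granulocyte and monocyte markers, among them Elane, Mpo and Itgam, lacked a region called in both genotypes. Among lymphocyte markers Cd3e, Cd3g, Cd8a, Ms4a1, Lck and Pax5 lacked one, while Cd3d, Cd4, Cd79a and Cd79b had an acetylated region within 1 kb of an end, which may belong to a neighbour. In bulk cells, a mark in a few cells and a weak mark in all cannot be told apart. Of the stromal markers, Lepr, the leptin receptor, had an unacetylated region of 1245 bp in RXRKO and 1140 bp in WT, and Cxcl12, Col1a1, Kdr and Pecam1 were acetylated, while Cdh5 and Pdgfra had no region.

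Gata2, a factor that HSCs need, had its unacetylated region at chr6:88193508-88194505 over a start. H3K4me3 covered 983 bp in RXRKO and 978 bp in WT at low folds of 1.86 and 1.92. H3K27ac lay 8546 bp away in RXRKO and 3493 bp away in WT. H3K4me1 was absent from the region except for 213 bp in RXRKO replicate 2. Nkx2-3, a homeobox factor, had 3 unacetylated regions, of which the one over its start had 1518 bp of H3K4me3 in RXRKO and 1862 bp in WT. Its H3K4me1 covered 25 and 0 bp in RXRKO, against 45 and 304 bp in WT. Prdm16, Lyl1, Meis1, Ly6a and Txnip each had an unacetylated region beside an acetylated one. Of the 39 HSC identity genes with a region, 2 had unacetylated regions alone (5.13%), against 8.35% over all genes. In all, 7 of the 39 HSC identity genes had at least 1 unacetylated region (17.9%), against 11.7% over all genes. Their 10 unacetylated regions lay a median of 1102 bp from H3K27ac, and at 0 of the 10 did all 4 libraries have H3K4me1 over the summit, against 1212 of the 1753 regions.

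Nuclear receptors, the ligand-activated factors to which RXR belongs, had an unacetylated region at 8 of 40 genes (20.0%). These included the orphan receptors Nr2f1, Nr2f2, Nr2f6, Nr2e1, Esrrg and Hnf4g and the retinoic acid receptor gene Rara. The Rara region lay at an annotated end of the gene but over 1 kb from a listed start. Rxra, one of the deleted genes, had an unacetylated region at chr2:27677443-27678319, 998 bp from its annotated end nearest to it and 660 bp from H3K27ac, next to an acetylated region. H3K4me3 covered 828 bp of it in RXRKO and 858 bp in WT. H3K4me1 covered 295 and 640 bp in RXRKO, against 161 and 465 bp in WT, with the genotypes overlapping. Over the deleted genes as a check of the labels, H3K4me1 covered 580 and 738 bp of Rxrb in RXRKO, against 1391 and 1431 bp in WT, without overlap. It covered 22567 and 25320 bp of Rxra in RXRKO, against 21563 and 24413 bp in WT, which overlap. The other marks, with 1 library each, were not lower in RXRKO. H3K4me3 covered 1686 bp of Rxrb in RXRKO and 1258 bp in WT, and 9175 bp of Rxra in RXRKO and 6807 bp in WT. H3K27ac covered 988 bp of Rxrb in RXRKO and 494 bp in WT, and 8812 bp of Rxra in RXRKO and 8810 bp in WT. The labels were thus not settled by these peak lists. Of 26 RXR heterodimer targets with a region, 1 had an unacetylated one, Crabp2, which encodes a retinoic acid binding protein, and it also had an acetylated region.

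The broadest unacetylated regions differed in how far H3K4me1 covered them. Ski, a repressor of TGF-beta signalling, had the broadest, at chr4:155218841-155222409 downstream of its start, with 3569 bp of H3K4me3 in RXRKO and 3320 bp in WT. H3K4me1 covered 0 and 355 bp of it in RXRKO and 0 bp in both WT libraries. The region lay 761 bp from an H3K27ac peak. Rbm38, an RNA-binding protein gene, and Ssbp3, a cofactor gene of LIM homeobox factors, were alike in this, with 1523 and 263 bp to H3K27ac. At Rbm38 H3K4me1 covered 0 bp in all 4 libraries, and at Ssbp3 0 and 348 bp in RXRKO and 0 bp in both WT libraries. The other 7 of the broadest 10 lay at least 7033 bp from H3K27ac. Among them Casz1, a zinc finger factor of heart and retina, had 2828 and 3282 bp of H3K4me1 in RXRKO, against 2607 and 2878 bp in WT, over a region of 3282 bp. Nfib had 2009 and 2382 bp of H3K4me1 in RXRKO, against 2165 and 2506 bp in WT.

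**Figure D4:**
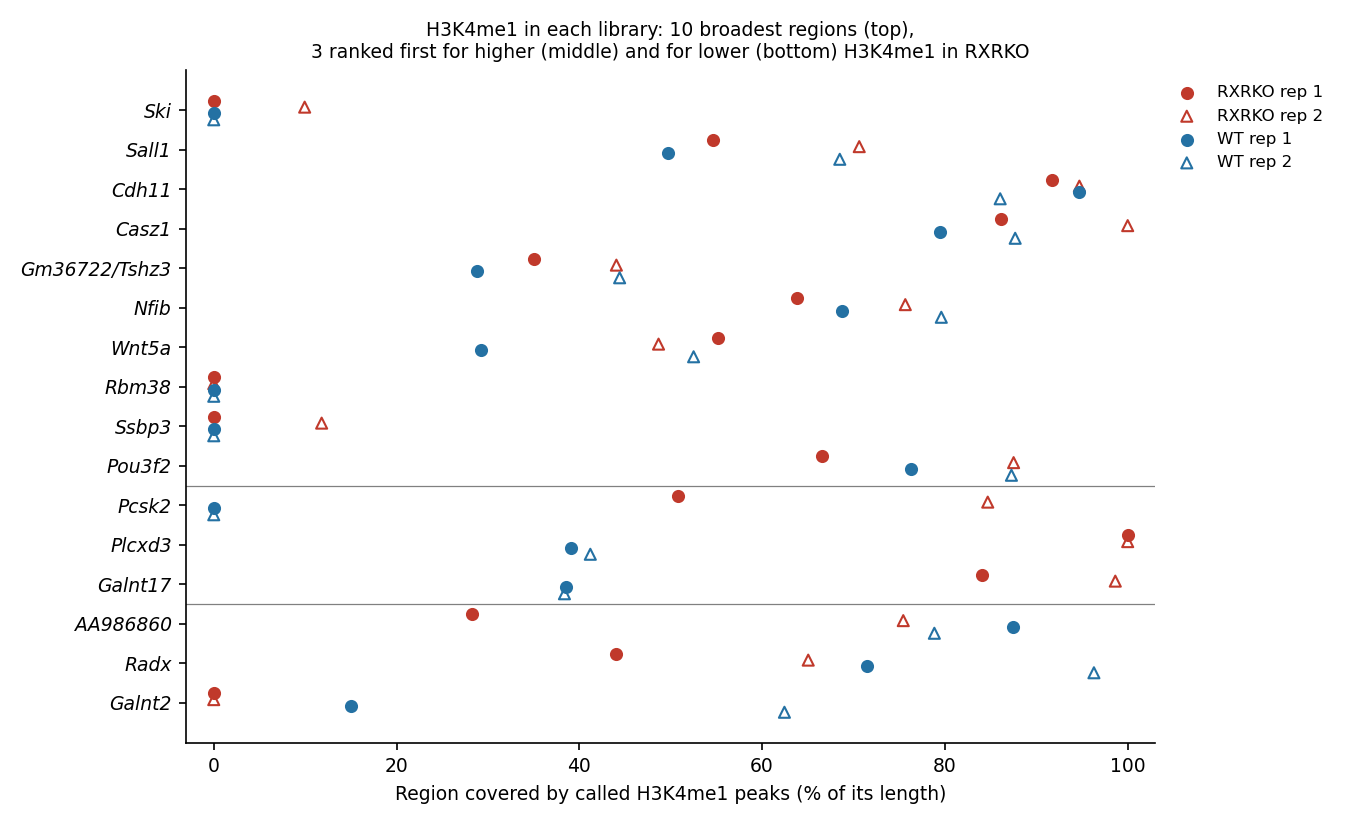
Percentage of the region covered by called H3K4me1 peaks in each library, RXRKO red and WT blue, replicate 1 as filled circles and replicate 2 as open triangles. The top block holds the 10 regions with the longest H3K4me3, of which Ski, Rbm38 and Ssbp3 lie at or near 0; below are the 3 regions ranked first for higher and the 3 ranked first for lower H3K4me1 in RXRKO, where Pcsk2 is at 0 in both WT libraries.

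H3K4me1 was called on most unacetylated regions. It overlapped 85.3% and 91.0% of them in RXRKO replicates 1 and 2, against 85.5% and 90.3% in WT replicates 1 and 2. On regions with H3K27ac in both genotypes the shares were 97.4% and 99.2% in RXRKO and 98.0% and 99.3% in WT. All 4 libraries called H3K4me1 on 1447 of the 1753 unacetylated regions (82.5%), and no library did on 114, of which 68 lay within 2 kb of H3K27ac. The shares differed by replicate more than by genotype. Regions share a library and are not replicates, so no test was made between the kinds of region.

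At the summit of H3K4me3 the picture depended on H3K27ac nearby. Among the far regions the summit lay inside an H3K4me1 peak at 81.5% and 93.2% in RXRKO, against 82.2% and 92.7% in WT. Among the near regions it did at 45.3% and 62.9% in RXRKO, against 45.05% and 60.4% in WT. Regions with H3K27ac in both genotypes stood at 73.5% and 90.7% in RXRKO and 74.0% and 89.5% in WT. In each of the 4 libraries the far regions stood above these and the near regions below. The 1117 regions with H3K27ac in 1 genotype had 79.95% and 90.96% in RXRKO and 81.8% and 90.4% in WT. In each library they lay between the far regions and those with H3K27ac in both genotypes. By distance, the share was lowest, 32.9% and 53.3% in RXRKO and 33.5% and 46.1% in WT, where H3K27ac lay 1 to 500 bp away. It was highest between 20 and 100 kb, at 86.3% and 95.9% in RXRKO and 86.9% and 95.3% in WT. Beyond 100 kb it was lower again, at 70.6% and 89.6% in RXRKO and 68.7% and 85.9% in WT.

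From the shortest to the longest H3K4me3, the kinds of region changed in opposite directions, though not steadily. Where H3K4me3 was longer than 2000 bp, the summits of 112 unacetylated regions lay inside H3K4me1 at 75% and 90.2% in RXRKO and 81.2% and 90.2% in WT. The 2594 acetylated regions of that length had 47.5% and 75.6% in RXRKO and 48.0% and 74.8% in WT. Where it was up to 500 bp, 274 unacetylated regions had 55.1% and 68.6% in RXRKO and 57.7% and 69.0% in WT, against 93.5% and 97.8% in RXRKO and 94.8% and 97.8% in WT for 232 acetylated ones. The order of the kinds of region thus turned between the shortest and the longest in each of the 4 libraries.

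**Figure D5:**
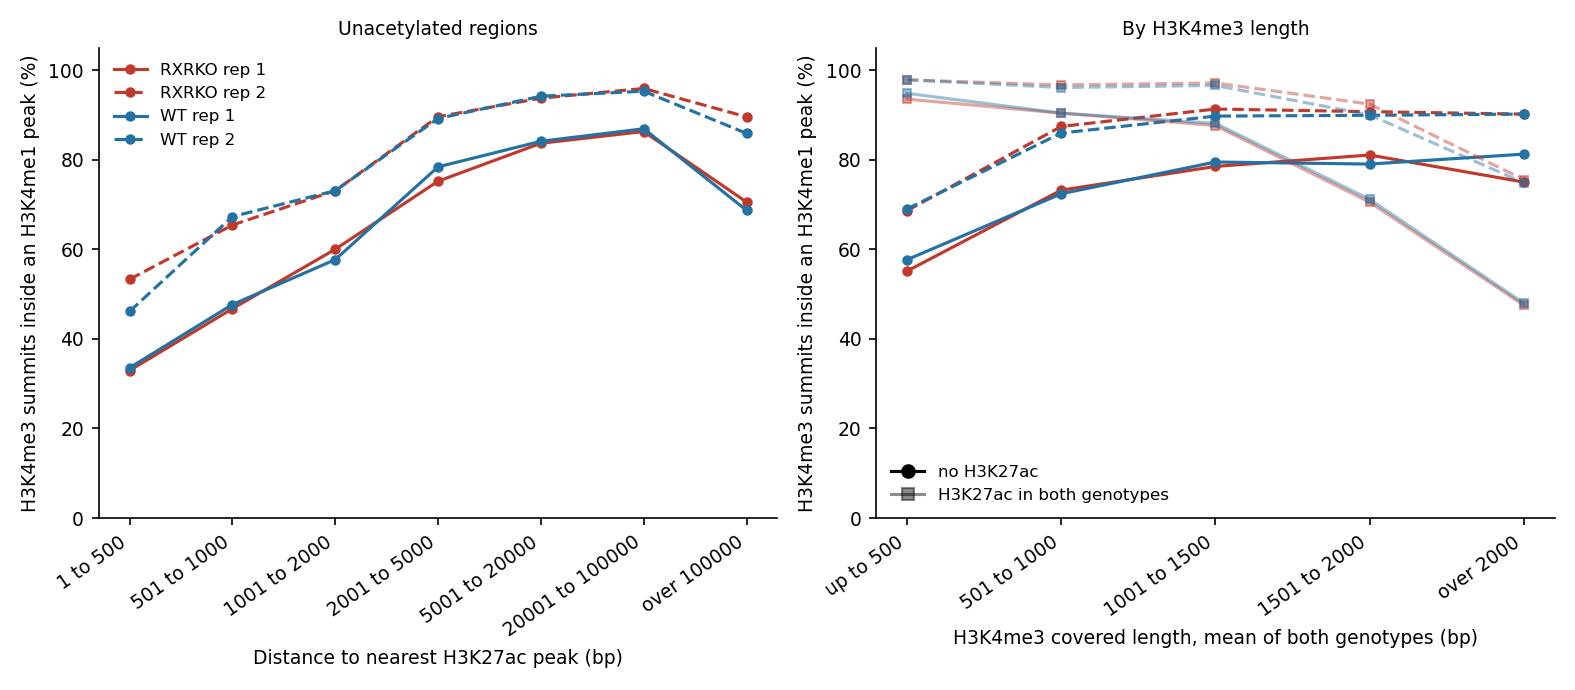
Percentage of H3K4me3 summits inside an H3K4me1 peak in each library (RXRKO red, WT blue, replicate 1 solid, replicate 2 dashed). Left, unacetylated regions by distance to the nearest H3K27ac peak in bp; right, unacetylated regions (circles) and regions with H3K27ac in both genotypes (pale squares) by the H3K4me3 length in bp averaged over the genotypes. Left, the lowest points are at 1 to 500 bp; right, the pale lines fall with length and cross the circles.

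The comparison of RXRKO with WT asks whether loss of the receptors changed H3K4me1 at these promoters. No region passed the test. H3K4me1 was measured as the length covered by called peaks in the region and 2 kb on each side, and 1608 of the 1753 regions had enough of it (a mean of at least 500 bp) to be tested among 57130 regions in all. The 145 others were left out by this filter. In limma with Benjamini-Hochberg adjustment, 0 unacetylated regions were called higher in RXRKO and 0 lower, where the background over all regions tested was 0.0% in each direction. The lowest adjusted p among them was 0.218, and 30 had an unadjusted p under 0.05 with higher and 29 with lower values in RXRKO. Their median log2 difference was -0.013, beside -0.0090 over all regions tested, with 734 above 0 and 874 below. With the replicate number as a block, 2 unacetylated regions were called higher in RXRKO, beside a background of 0.0315%, and 0 lower, beside 0.0123%. With the region alone as the window, 0 were called higher, beside a background of 0.00512%, and 0 lower, beside 0.0%.

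The 2 regions were those of Pcsk2 and Plcxd3. Pcsk2 encodes a prohormone convertase of neuroendocrine cells, and its region lay at chr2:143545203-143547135, 286885 bp from H3K27ac. The window held 1389 and 2451 bp of H3K4me1 in RXRKO, against 0 and 0 bp in WT. Both RXRKO libraries thus called a mark that neither WT library did (log2 +2.19 on the scale with 500 bp added, SE 0.20, adjusted p = 0.218, and 0.0170 with the block). H3K4me3 there was also longer, 1933 bp in RXRKO and 496 bp in WT, a value of 1 library each that the rule used. Plcxd3, a phospholipase C domain gene, had 1481 and 1868 bp in RXRKO, against 533 and 562 bp in WT. The genotypes did not overlap at Plcxd3 (log2 +1.00, SE 0.11, adjusted p = 0.271, and 0.0405 with the block). Galnt17, which encodes a mucin-type glycosyltransferase, had 1684 and 2253 bp in RXRKO, against 833 and 764 bp in WT (log2 +0.87, SE 0.12, adjusted p = 0.376), also without overlap. Setd1b (+0.64), a gene for an H3K4 methyltransferase, and Ndst1 (+0.56), for a heparan sulfate sulfotransferase, came next and did not pass. In both the H3K4me1 lay outside the region itself, where all 4 libraries had 0 bp.

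Toward lower H3K4me1 in RXRKO the first was AA986860, with 192 and 510 bp in RXRKO, against 1329 and 1207 bp in WT. The genotypes did not overlap, and the test was not passed (log2 -1.13, SE 0.17, adjusted p = 0.480). Radx, an X-linked gene that acts at replication forks, had 489 and 722 bp in RXRKO, against 1307 and 1069 bp in WT (log2 -0.66, adjusted p = 0.644). Galnt2 (-0.43), Fxyd6 (-0.50) and Nxph4 (-0.36) followed, with adjusted p from 0.644 to 0.723.

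Regions were also counted by the libraries that called them. On 5 unacetylated regions H3K4me1 was called in both RXRKO libraries and in neither WT library, those of Ikzf2, Marchf9, Pcsk2, Cxxc4 and Rasgef1a. The opposite held on 3, those of Pcdhgb6, Galnt2 and Scaper. On 62 it was called in both replicate 2 libraries and in neither replicate 1 library, and on 8 the other way round. Among the 11392 regions with H3K27ac in both genotypes the counts were 3 and 7 by genotype and 94 and 1 by replicate. Splits by replicate number outnumbered splits by genotype in both kinds of region. The replicate 2 lists also hold more H3K4me1 peaks, 165128 in RXRKO and 159713 in WT. Replicate 1 has 147698 in RXRKO and 149377 in WT. The cause of the splits was not tested. At Rasgef1a, which encodes an exchange factor of Ras proteins, the calls were 405 and 358 bp in RXRKO and 0 bp in both WT libraries. At Ikzf2, the Helios zinc finger gene of lymphoid cells, they were 190 and 223 bp in RXRKO and 0 bp in both WT libraries.

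By list, the median log2 difference in H3K4me1 lay near 0, at -0.0022 for 206 tested regions of developmental transcription factors, -0.0075 for 50 of ligands, +0.0094 for 106 of channels and receptors and +0.015 for 62 of adhesion and synapse genes. No region of these lists passed. The lists with fewer than 10 tested regions had medians from -0.21 (germ cell genes, 5 regions) to +0.17 (the 1 region of Crabp2).

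H3K4me3 itself was slightly longer in RXRKO over these regions, with a median log2 difference of +0.07 and 1194 regions longer and 554 shorter in RXRKO. Over all 14262 promoter regions called in both genotypes the lean was the same way, with a median of +0.02 and 8715 longer and 5475 shorter in RXRKO. The rule required the mark in both libraries, there is 1 library per genotype, and the RXRKO list has more peaks and covers 53.8 Mb, against 45.5 Mb in WT, so no test applies. Among the unacetylated regions 50 were 2-fold or more longer in RXRKO (2.85%) and 8 in WT (0.456%). Over all promoter regions called in both genotypes the shares were 0.989% and 0.154%. Among regions of at least 1000 bp in 1 genotype, the greatest differences toward RXRKO were at Fgf14, Gjd2 and Pcsk2. Gjd2, a neuronal connexin gene, had 1388 bp in RXRKO and 243 bp in WT. Fgf14, a regulator of neuronal sodium channels, had 2536 bp in RXRKO and 397 bp in WT. The Fgf14 region lay within 1 kb of a gene end but over 1 kb from a listed start. Fgf14 had H3K4me1 in RXRKO replicate 2 alone, 1731 bp. Toward WT the greatest differences were at Rbm46, a germ cell RNA-binding protein gene, C1qtnf7 and a region shared by Cers1, Gdf1 and Upf1. Rbm46 had 739 bp in RXRKO and 1944 bp in WT, and C1qtnf7 591 bp in RXRKO and 1080 bp in WT. The shared region had 574 bp in RXRKO and 1040 bp in WT.

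The highest H3K4me3 folds among unacetylated regions were at Gm33933 (19.8 in RXRKO and 20.4 in WT), Rnaset2a (22.9 and 19.5), LOC108167368 (21.6 and 19.0), Gm3636 (22.3 and 17.8) and Gm38418 (18.4 and 17.4). These promoters have near copies elsewhere. Between 61.9% and 82.2% of the runs of 20 bases in their windows also occur in the window of another gene. Reads from the shared runs may not be assignable to 1 gene, so the height at these regions is uncertain. Whether such reads changed the folds was not tested. A share of at least 50% was found at 36 of 1003 genes with an unacetylated region near a listed start (3.59%) and at 114 of 9051 with an acetylated one (1.26%).

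On the X chromosome 104 of 469 promoter regions were unacetylated (22.2%), against 11.96% on the autosomes, whose shares ran from 7.91% on chromosome 16 to 17.7% on chromosome 18. The X-linked regions had a median H3K4me3 length of 1021 bp, against 992 bp on autosomes. Their median distance to H3K27ac was 41368 bp, against 9680 bp on autosomes. H3K4me1 was called on 76.0% and 81.7% of the X-linked regions in RXRKO and on 75% and 84.6% in WT, against 85.9% and 91.6% in RXRKO and 86.2% and 90.7% in WT on autosomes. In each of the 4 libraries the X-linked share was the lower. The sex of the mice is not given in the labels.

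Several regions lay close to the limits of the rule. Irs1, which encodes an insulin receptor substrate, was 1 bp from a WT H3K27ac peak and 6160 bp from an RXRKO one. Otx1, a homeobox factor of the forebrain, was 41 bp from a WT peak and 902 bp from an RXRKO one. Just outside were a region of Elfn1, which shared 3 bp with a WT H3K27ac peak, and a region of the histone genes H2ac7 and H3c4, which shared 20 bp. Hes3 and Ccr8 had their regions 1000 bp from the gene end, and the nearest region beyond the limit was 1 bp farther.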

How the data were processed

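Histone marks were mapped in HSCs of RXRKO and WT mice in 8 libraries. Per the submitters' processing notes, the authors used cutadapt 1.7.1, Bowtie2 2.2.5, MACS3 and the build mm10, and 1 peak list per library was deposited. For MACS3, a version is not given in the sources used here. By the peak caller's format, the authors' fold is the ratio of peak height to local background, their −log10 p and −log10 q values come from the peak caller, and the deposited score restates the −log10 q. These are used only within a list. The lists give no read totals, so depth is unknown and no counting interval was computed.

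Peaks were merged where they overlapped. Gene ends (21631 protein-coding genes) and promoter windows came from RefSeq tables of GRCm38.p6, matched by symbol; exon and intron positions were not used. H3K4me1 was log2(covered bp + 500 bp) in the region plus 2 kb on each side, centred on library medians, tested with limma 3.58.1 (lmFit, eBayes with trend) on regions with a mean of at least 500 bp, with Benjamini-Hochberg adjustment, called at 0.05. The log2 differences understate changes of low values. The procedure was tested on simulated data. The peak names carry a tag whose meaning the labels do not give. It is shared by the H3K4me1 replicate 1 libraries of both genotypes and differs from that of the remaining 6. Replicate numbers were therefore taken to pair the genotypes. Deviations of the libraries of one number correlated with r = 0.271 across 57130 regions, which are not independent. A fit with this block was therefore run beside the main one.

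Named regions were the 10 broadest, the 5 with the smallest limma p in each direction, up to 4 per gene list, the 3 with the greatest H3K4me3 difference in each direction, those next to the limits of the rule, and the 5 with the highest fold. Further genes were named as members of lists or families after the values were seen. The regions, gene lists and tests were chosen with earlier results of these data known. The 20 lists are described by counts. The split at 2 kb from H3K27ac, the bins of length and distance, the chromosome counts, the symbol families and the promoter copies were chosen after the values were seen. Alternatives covered peak strength, distance limits, pseudocount, filter, window, centring, replicate block and left-out libraries. Some genes that these rules name are not reported here.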

Additional observations from a re-analysis of the deposited data

How the results depend on the processing

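The number of unacetylated regions, 1753, became 4598 when H3K27ac peaks with a fold under 4 were ignored and 3011 when the rule was applied to RXRKO alone. Under the other 9 alternatives it lay between 1211 and 2416. The share with H3K4me1 in all 4 libraries, 82.5%, was 85.5% when H3K27ac peaks under a −log10 q of 5 were ignored, 86.8% when those with a fold under 4 were, 86.5% with no H3K27ac within 1 kb, 89.8% with H3K4me3 peaks of a fold of at least 4, and 78.9% for the rule in WT alone. The median log2 difference in H3K4me3 length was +0.07 under both alternatives.

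No unacetylated region passed the H3K4me1 test with all 4 libraries and no block. With the replicate block, which pairs libraries of one replicate number, 25 of all regions and 2 unacetylated ones were called. The block changed no other call among the named regions. With the region alone as the window, 2 of all regions were called. Leaving out 1 library gave from 0 to 301 of all regions and from 0 to 11 unacetylated ones. Without WT replicate 1 the counts were 301 and 5, without WT replicate 2 they were 187 and 11, and without either RXRKO library 0; these fits take the spread of the lone library's genotype from the other genotype. The cause was not tested. Pcsk2 and Plcxd3 passed without WT replicate 1 and without WT replicate 2, as did Galnt17, and AA986860 without WT replicate 2. The log2 difference of Fxyd6 reversed to +0.030 with H3K4me1 peaks of a fold of at least 4, and those of the 9 other named regions kept their sign wherever they were tested. Peak lists hold no depth, so a region just under the caller's limit counts as absent.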
